A study of Mus musculus with 4 samples.

Results

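Broad distal open regions of mouse embryonic stem cells are long stretches of accessible chromatin that lie away from the ends of genes. They were taken from ATAC-seq, in which a transposase cuts and tags open DNA. All peak intervals of the 2 wt libraries were merged by overlap, and autosomal merged regions of at least 1500 bp were kept when they lay more than 5 kb from either end of every protein-coding gene. This left 541 members of 186914 autosomal wt regions (0.289%), of 138540 distal regions (0.391%) and of 1782 regions of at least 1500 bp (30.4%).

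The study compared mouse embryonic stem cells of wt genotype with Hox-/- cells, named in the title of the series as without any Hox function, with 2 ATAC-seq libraries of each. Both genotypes were grown alike, with 10% serum, 100 ng per ml of leukaemia inhibitory factor, 3 μM of the glycogen synthase kinase inhibitor CHIR99021 and 1 μM of the MEK inhibitor PD0325901, and each library was amplified for 12 cycles. The labels do not say whether the Hox-/- cells are 1 clone, nor that replicates came from separate cultures, so the spread between libraries of 1 genotype may be technical. The lists held 213705 and 216795 peak lines in wt and 191704 and 200214 in Hox-/-. Pairs of values below are in the order replicate 1, replicate 2. The lists give no read counts, so depth is unknown. Both Hox-/- lists were shorter than both wt lists, and the part of this in the genotype differences below was not tested beyond a setting with as many lines from every library. As a check of the cell type, 6 of 6 stem cell genes (Pou5f1, Sox2, Nanog, Zfp42, Esrrb and Tdgf1) had a peak within 1 kb of a gene end in every library. So did 8 of 9 genes of other cell types, all but Gata4, so peaks at gene ends do not tell these cell types apart.

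Distal open regions include enhancers, which bind transcription factors and act on promoters at a distance, insulators, and promoters of RNAs that code for no protein. In stem cells, enhancers bound by many factors are often long or lie in groups near genes of cell identity. A region can also be called broad because several neighbouring sites of factor binding, with nucleosomes between them, are joined into 1 interval by the peak caller. Nothing in a list of peaks tells these kinds apart.

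The distance rule used only the outer ends of genes, so starts of transcripts inside genes and starts of non-coding RNAs could fall within members. The RefSeq promoter windows shown here lie wholly inside members and were chosen because those members appear in the results below. Each window runs from 250 bases before to 50 bases after a transcript start, on build GRCm38.p6, is read 5′ to 3′ along the transcript, and has CG dinucleotides in capitals, since such dinucleotides are dense in the promoters known as CpG islands. The windows are chr12:86421394-86421693 on the plus strand in Esrrb, an orphan nuclear receptor gene of naive stem cells; chr12:105336743-105337042 on the plus strand at Tunar, a long non-coding RNA; chr9:20952574-20952873 on the minus strand in Dnmt1, the maintenance DNA methyltransferase; chr13:111808944-111809243 on the minus strand in Map3k1, a kinase of stress signalling; and chr4:104367288-104367587 on the plus strand in Dab1, an adaptor of reelin signalling.
Esrrb window: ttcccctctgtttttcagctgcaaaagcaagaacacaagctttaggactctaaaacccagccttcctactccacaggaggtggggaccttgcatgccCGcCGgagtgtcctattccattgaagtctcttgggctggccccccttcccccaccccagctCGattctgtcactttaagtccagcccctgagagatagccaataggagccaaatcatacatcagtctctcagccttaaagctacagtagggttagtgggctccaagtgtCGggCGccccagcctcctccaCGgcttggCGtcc
Tunar window: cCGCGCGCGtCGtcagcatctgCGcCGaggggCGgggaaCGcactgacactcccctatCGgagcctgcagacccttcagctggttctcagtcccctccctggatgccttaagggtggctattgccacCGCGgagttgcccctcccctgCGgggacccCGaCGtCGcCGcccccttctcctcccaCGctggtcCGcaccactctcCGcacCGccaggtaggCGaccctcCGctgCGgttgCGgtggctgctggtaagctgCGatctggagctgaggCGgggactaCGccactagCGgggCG
Dnmt1 window: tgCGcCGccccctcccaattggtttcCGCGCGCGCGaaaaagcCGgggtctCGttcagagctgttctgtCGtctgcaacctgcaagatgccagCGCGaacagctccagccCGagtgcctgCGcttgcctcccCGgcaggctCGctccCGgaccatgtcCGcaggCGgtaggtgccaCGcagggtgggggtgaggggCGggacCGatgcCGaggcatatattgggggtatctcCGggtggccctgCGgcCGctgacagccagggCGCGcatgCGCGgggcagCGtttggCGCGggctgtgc
Map3k1 window: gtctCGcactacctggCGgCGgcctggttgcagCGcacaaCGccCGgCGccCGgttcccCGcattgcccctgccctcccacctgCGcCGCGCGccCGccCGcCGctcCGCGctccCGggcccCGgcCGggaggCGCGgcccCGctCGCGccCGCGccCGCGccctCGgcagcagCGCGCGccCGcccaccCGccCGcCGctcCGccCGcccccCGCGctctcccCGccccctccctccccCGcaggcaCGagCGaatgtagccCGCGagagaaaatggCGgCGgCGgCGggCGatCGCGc
Dab1 window: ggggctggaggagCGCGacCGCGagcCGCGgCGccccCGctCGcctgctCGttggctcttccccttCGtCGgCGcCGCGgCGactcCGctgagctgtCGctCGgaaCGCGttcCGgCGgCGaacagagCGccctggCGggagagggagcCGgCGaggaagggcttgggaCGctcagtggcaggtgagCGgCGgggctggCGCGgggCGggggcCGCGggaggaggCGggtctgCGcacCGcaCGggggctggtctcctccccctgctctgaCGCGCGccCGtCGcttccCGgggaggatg
The 5 windows held 7, 30, 33, 55 and 46 CG dinucleotides, in the order shown, against a median of 7 over 32851 RefSeq windows of the same length. Thus the Esrrb window was at the median of all windows and the other 4 were above it. Another window of Tunar and another of Dnmt1 in the same members, not shown, held 11 and 12 CG dinucleotides, fewer than the windows shown.

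MicroRNA genes lay whole inside 3 members, and 5 mature microRNAs from 2 of these are printed with the seed, bases 2 to 8, in capitals because the seed decides target pairing. The member chr3:88214304-88216011 held Mir9-1, a microRNA of neural development, and Mir3093, while miR-9b on the other strand is not printed. The member chr13:109902124-109904134, in Pde4d, held Mir1904.
miR-9-5p: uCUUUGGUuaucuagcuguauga
miR-9-3p: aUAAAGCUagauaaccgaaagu
miR-3093-5p: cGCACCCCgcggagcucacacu
miR-3093-3p: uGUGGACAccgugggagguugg
miR-1904: gUUCUGCUccucuggagggagg
No 2 of these 5 seeds were the same. At the Mir9-1 member the covered length was 1612 and 1671 bp in wt and 1658 and 1421 bp in Hox-/-, so the genotypes overlapped. At the Mir1904 member it was 1980 and 1728 bp in wt and 1396 and 1907 bp in Hox-/-, and the genotypes overlapped again.

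The width that chose the members ranged from 1500 to 2626 bp with a median of 1642 bp, against a median of 402 bp in the 137999 narrower distal regions and 1673 bp in the 1241 broad regions within 5 kb of a gene end. Only 33 members reached 2000 bp. Just inside the limit, the 21 members of 1500 to under 1510 bp were covered over a mean of 1413 and 1354 bp in wt and 1223 and 1217 bp in Hox-/-. Just outside it, the 33 distal regions of 1490 to under 1500 bp were covered over 1408 and 1362 bp in wt and 1172 and 1276 bp in Hox-/-. By distance, 12 members lay 5 to 5.5 kb from a gene end, and 10 broad regions lay 4.5 to 5 kb from one.

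Many members were that broad in only some of the libraries. An interval of at least 1500 bp was called in both wt libraries at 163 members, in 1 wt library at 279, and in neither at 99, where shorter intervals of the 2 libraries joined. In the Hox-/- libraries, which played no part in the choice, 151 members (27.9%) in replicate 1 and 162 (29.9%) in replicate 2 had such an interval, and 79 members had one in all 4 libraries. The wt numbers, 337 and 268, follow from the choice.

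Nearly all members were open in both genotypes. Of the 541 members, 540 had a peak in each Hox-/- library, and 1 had none in either (0.185%, exact 95% binomial interval 0.00468% to 1.03%, which covers counting error only). Over all autosomal wt regions 16.1% had no Hox-/- peak, over all distal regions 17.5%, and over distal regions of 1000 to under 1500 bp 0.0858%. In broad regions within 5 kb of a gene end the share was 0.0806%. Lists of wide regions thus held few without a Hox-/- peak, near gene ends or far from them.

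The 1 member without a Hox-/- peak was chr11:96250413-96252372, in the HoxB cluster between Hoxb13 and Hoxb9, with the nearest gene end that of Hoxb9 at 19.0 kb. Genes of this cluster set position along the body axis. Its intervals covered 1960 bp in wt replicate 1 and 1280 bp in wt replicate 2, with 4 and 2 summits, and 0 bp in both Hox-/- libraries. The wt libraries did not overlap the Hox-/- libraries. A list of peaks does not show whether the DNA of this region is present in the Hox-/- cells, and this was not tested. Its width rests on wt replicate 1, and without that library it is not a member and 0 members lack a Hox-/- peak. It was the only member whose nearest gene was a Hox gene, of a list of 39 (0.185% of members, against 0.0585% of all distal regions).

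The 541 members were covered over a larger share of their width in wt, as the choice on wt lists favours. The mean covered share was 94.0% and 92.6% in wt and 83.0% and 84.8% in Hox-/-. The wt libraries averaged 93.3% ± 1.04 (SD, n = 2) and the Hox-/- libraries 83.9% ± 1.31 (SD, n = 2). This is −9.40 percentage points, Hox-/- minus wt, given as a description, since the rule used the wt intervals and since 2 against 2 libraries cannot give an exact p below 0.33. In bp, wt libraries averaged 1575 ± 18.2 (SD, n = 2) and Hox-/- libraries 1415 ± 22.5 (SD, n = 2). The gap between genotypes was larger than the spread between replicates, but part of it was set by the rule. It was −9.88 points in distal regions of 1000 to under 1500 bp, −12.5 points in those of 500 to under 1000 bp, −23.4 points under 500 bp and −7.20 points in broad regions at gene ends, all chosen on the wt lists too. When the mirror rule chose 361 regions on the Hox-/- lists, the difference was 1.37 points, in the opposite direction, and with 765 regions from all 4 lists it was −6.15 points.

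**Figure D1:**
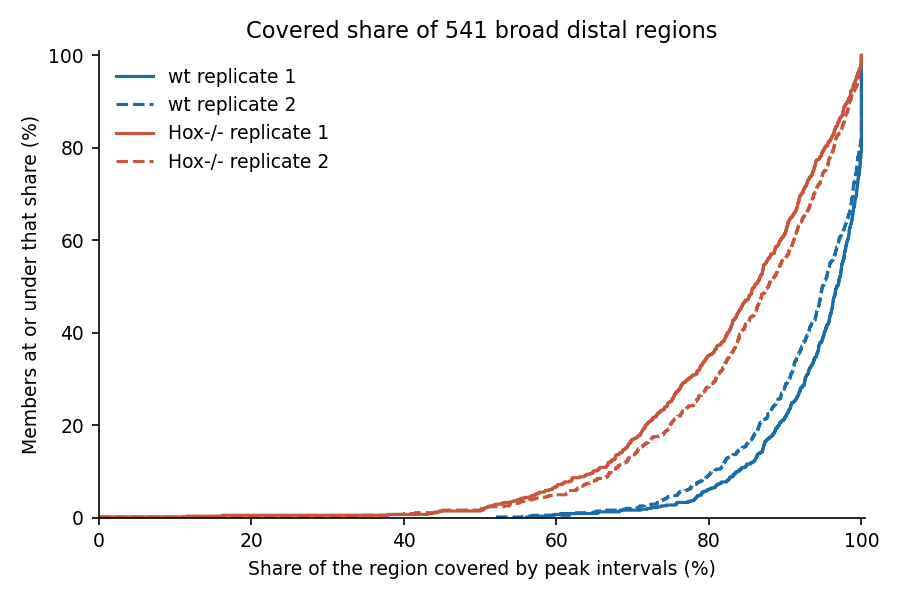
The x axis is the share of a member covered by peak intervals of a library, in percent, and the y axis is the percent of the 541 members at or under that share, with 1 line per library (wt blue, Hox-/- red, replicate 2 dashed). Both Hox-/- lines lie above both wt lines over most of the range, with medians of 86.0% and 87.8% against 96.8% and 94.9%.

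To free the comparison from the choice, regions were chosen on 1 library by the same limits and measured in the other 3. The 337 regions chosen on wt replicate 1 were covered over 91.6% of their width in wt replicate 2, and over 86.8% and 88.7% in Hox-/-. The 270 regions chosen on wt replicate 2 were covered over 92.8% in wt replicate 1, and over 88.1% and 89.8% in Hox-/-. In the 184 regions chosen on Hox-/- replicate 1 the wt libraries reached 94.0% and 94.3% and Hox-/- replicate 2 reached 92.8%. The 202 regions chosen on Hox-/- replicate 2 were covered over 94.3% and 94.1% in wt and over 90.3% in Hox-/- replicate 1. So in all 4 choices each wt library not used was covered more fully than each Hox-/- library not used, also where the choice was made on a Hox-/- list.

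The size of this held-out difference, Hox-/- minus wt, was −3.90, −3.84, −1.35 and −3.88 points in the 4 choices, less than the −9.40 points of the members as chosen. With only the 150000 lines of highest −log10 p from each library it was −3.92, −3.15, −1.54 and −3.44 points. In distal regions of 1000 to under 1500 bp the held-out difference ran from −4.78 to −2.50 points, and in broad regions at gene ends from −3.44 to −1.66 points. The difference was therefore also present outside the members. With 1 library of the choosing genotype left, no test over libraries was made.

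**Figure D2:**
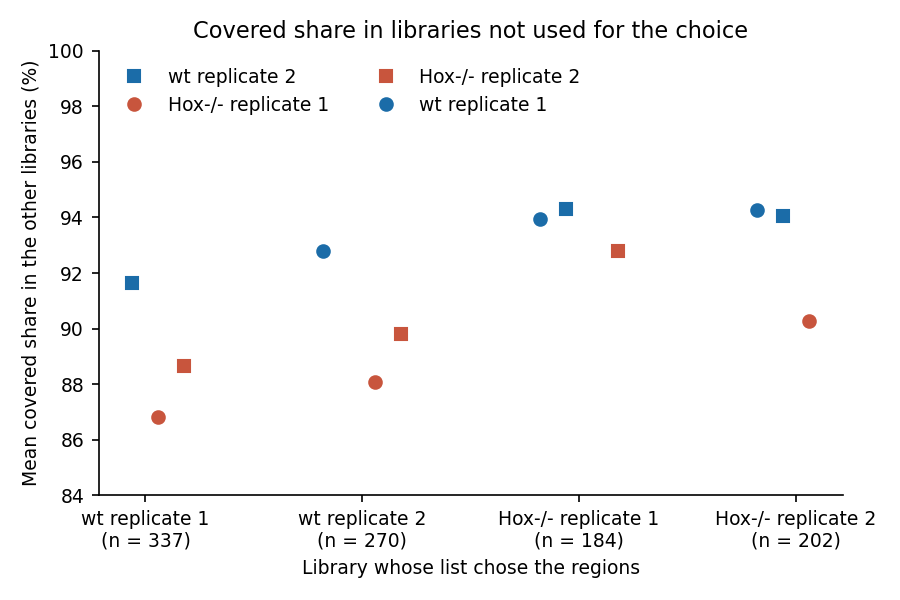
Each column is a choice of regions on the list of 1 library (x axis, with the number of regions), and each point is the mean covered share in percent (y axis, which starts at 84) in a library not used for that choice (wt blue, Hox-/- red, replicate 1 circles, replicate 2 squares). The wt points lie above the Hox-/- points in every column, from 91.6% to 94.3% against 86.8% to 92.8%.

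Member by member, the covered length in both Hox-/- libraries was under that in both wt libraries at 271 of 541 members (50.1%), while this held for 31.9% of all autosomal and 31.6% of all distal wt regions, for 45% of distal regions of 1000 to under 1500 bp and for 43.3% of broad regions at gene ends. It was above that in both wt libraries at 3 members (0.555%), against 1.49% of all autosomal and 1.49% of all distal regions, 1.39% of distal regions of 1000 to under 1500 bp and 1.53% of broad regions at gene ends. The rule used the wt lengths in this contrast, so nothing is read from these shares. In the 361 regions of the mirror rule, 38 (10.5%) were lower and 65 (18.0%) higher in both Hox-/- libraries. In the 765 regions merged from all 4 lists, 276 (36.1%) were lower and 57 (7.45%) higher. Thus the balance of lower and higher among broad distal regions depended on which lists chose them. For the mirror rule and the 4 lists, no share over all regions merged in the same way was computed. A gap between libraries of 1 genotype was common as well: the median absolute difference in covered share over the members was 5.94 points between the wt replicates and 5.60 points between the Hox-/- replicates, against 7.10 to 9.26 points for the 4 pairs across genotypes.

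The bases that Hox-/- libraries did not cover lay mostly at the edges of members. An average of 288 bp per member was uncovered in Hox-/- replicate 1 and 256 bp in replicate 2, of which 62.3% and 62.5% lay outside the first and last covered base and 36.4% and 36.1% between intervals. In wt replicates 1 and 2 it was 99.9 and 126 bp, with 67.5% and 60.4% at the edges. Within 50 bp of an edge, 69.0% and 70.6% of bases were covered in wt and 42.6% and 46.7% in Hox-/-. At 700 to 750 bp from an edge it was 97.3% and 95.5% in wt and 88.3% and 89.8% in Hox-/-. Since the edges of members were defined by the wt intervals, the outermost bins favour wt by construction. Members lay in 1 unbroken interval at 434 and 373 of 541 places in wt and at 291 and 305 in Hox-/-.

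**Figure D3:**
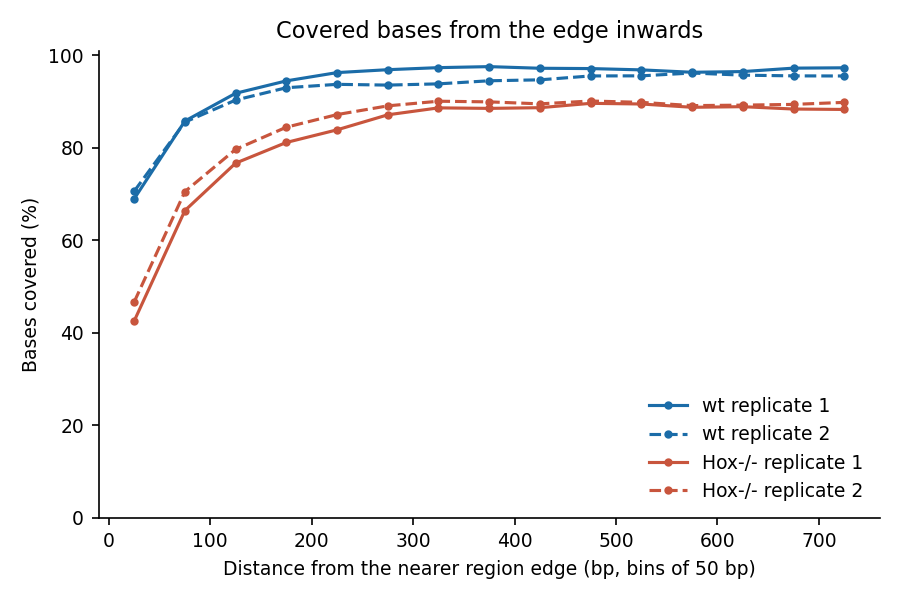
The x axis is the distance from the nearer edge of a member in bins of 50 bp and the y axis is the percent of bases covered, over 541 members and both edges, with 1 line per library (wt blue, Hox-/- red, replicate 2 dashed). Coverage is lowest in the first 50 bp in all 4 libraries, and both Hox-/- lines stay below both wt lines out to 750 bp.

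Most members held several summits, the points of highest signal within an interval. Each peak line has 1 summit, and the numbers of summits given per member count the lines whose interval overlaps it. The median was 3 per member in every library, with a range of 1 to 7 and 1 to 6 in wt and of 0 to 8 and 0 to 6 in Hox-/-. By library means, 3.51 ± 0.0118 (SD, n = 2) lines overlapped a member in wt against 3.31 ± 0.0771 (SD, n = 2) for Hox-/-, which is −0.205 relative to wt. Counting only summits that lie inside the member, the means were 3.52 and 3.51 in wt and 3.33 and 3.24 in Hox-/-. The choice on wt widths favours wt here too: in the 361 regions chosen by the mirror rule the median was 3 in both wt libraries and 4 and 3 in Hox-/-. Distal regions of 1000 to under 1500 bp had a median of 2 summits in every library, and broad regions at gene ends had 4 in wt and 3 in Hox-/-.

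Neighbouring summits within a member had similar gaps in the 4 libraries. The median gap between neighbouring summits was 409 and 411 bp in wt and 408 and 438 bp in Hox-/-, with quartiles of 322 and 532 bp in wt replicate 1. In distal regions of 1000 to under 1500 bp the median gaps were 388 to 406 bp. The median distance of the strongest summit from the centre of a member was 43.1% to 45.3% of the way to the edge over the 4 libraries. It was 32.3% to 33.5% of the way in distal regions of 1000 to under 1500 bp.

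Most summits recurred at the same place in the other libraries, within a genotype and between genotypes. Of 1906 summits of wt replicate 1 inside members, 84.6% had a counterpart at most 100 bp away in the other wt library, and 80.2% and 81.2% had one in the Hox-/- libraries. Of 1803 summits of Hox-/- replicate 1, 82.3% had a match in the other Hox-/- library and 84.8% and 85.5% in the wt libraries. In distal regions of 1000 to under 1500 bp, summits of wt replicate 1 had similar shares. There 86.3% had a match in wt replicate 2, and 80.9% and 81.2% in the Hox-/- libraries. How often unrelated summits would lie within 100 bp was not computed.

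The peak caller's own −log10 p did not place the members at the top of the lists. The best line of a member had a median rank of 34496 of 213705 in wt replicate 1, which is within the first 16.1%, and in the other 3 libraries the median lay at 15.8% to 19.0%. The authors' fold over background at that line had a median of 8.18 and 8.20 in wt and 7.76 and 7.78 in Hox-/-, each within its own list. Among the first 10000 lines of a library were 74 to 79 members, 13.7% to 14.6% of them, and 177 to 182 members had no line among the first 50000.

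The 5 widest members showed how unlike broad members could be. At chr10:7390382-7393007, nearest to Ulbp1, a ligand of an immune receptor, the intervals covered 2471 and 1922 bp in wt and 1779 and 1503 bp in Hox-/-. Here the wt values lay above the Hox-/- values, but the wt replicates differed by more than wt replicate 2 and Hox-/- replicate 1. Its best lines ranked 106353 and 85376 in wt, past the median rank of all members, with 6 and 3 summits. At chr8:83874366-83876811, 23.3 kb from Adgrl1, a latrophilin receptor of neurons, coverage was 2309 and 2381 bp in wt and 2363 and 2434 bp in Hox-/-, with genotypes overlapping. At chr8:47287195-47289589, inside Stox2, coverage was 2166 and 2294 bp in wt and 1933 and 2067 bp in Hox-/-, lower in both Hox-/- libraries. This member had 7 and 5 summits in wt and 4 in each Hox-/- library, and the 7 were the most of any member in wt replicate 1. In that library 12 members tied at 6 summits, among them those near Ulbp1, Adgrl1, Macf1 and Rnf19a. At the last of these, chr15:36373637-36375825, summits numbered 6 and 5 in wt and 5 and 2 in Hox-/-, and covered lengths were 2189 and 1875 bp in wt against 2165 and 1221 bp in Hox-/-, with overlap. At chr6:108530685-108533067, inside Itpr1, the calcium channel gene of the endoplasmic reticulum, coverage was 2376 and 2383 bp in wt and 2296 and 2345 bp in Hox-/-. At chr13:23285052-23287426, nearest to Vmn1r223, a pheromone receptor, it was 2364 and 2189 bp in wt and 2116 and 1928 bp in Hox-/-. These last 2 were lower in Hox-/- by small margins, 31 and 73 bp between the nearest libraries. The member nearest to Vmn1r223 also held 2 tRNA genes and a start of the long non-coding RNA Gm40832. The member near Rnf19a held a start of the long non-coding RNA Gm34150.

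The next 5 in width were chr13:111807700-111810028 in Map3k1, chr17:85799041-85801263 at 111 kb from Six2, a kidney progenitor factor, chr4:104366863-104369070 in Dab1, chr19:33849279-33851481 near Lipo1 and chr4:123563763-123565952 in Macf1, a linker of the cytoskeleton. Their covered lengths ran from 2040 to 2204 bp over both wt libraries and from 1633 to 2177 bp over both Hox-/- libraries. All 5 were lower in both Hox-/- libraries, by as little as 2 bp at Six2, as were 25 of the 33 members of at least 2000 bp and 50.1% of all members, chosen on wt width. The member 111 kb from Six2 held starts of the long non-coding RNAs Gm29418 and Gm4718, and that in Map3k1 also held a start of Gm15327.

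The largest falls from wt to Hox-/- among members whose genotypes did not overlap, after the one near Hoxb9, were at members that ranked past the median member in every library. At chr5:117439897-117441759 in Ksr2, a scaffold of MAP kinase signalling, coverage was 1325 and 1446 bp in wt and 214 and 746 bp in Hox-/-, and the best lines ranked 190855 of 213705 and 178111 of 216795 in wt. The member chr3:6315958-6317797, 298 kb from 1700008P02Rik, was covered over 1696 and 1689 bp in wt and 1009 and 829 bp in Hox-/-. That at chr6:89835183-89836732 near Vmn1r42 was covered over 870 and 1550 bp in wt and 251 and 643 bp in Hox-/-. At chr7:3684613-3686169 in Mboat7, an acyltransferase of phospholipids, it was 1414 and 1393 bp in wt and 589 and 694 bp in Hox-/-. Ranks of these 4 lay between 69310 and 190855 over the libraries, past the median rank of all members, which was 34331 to 36379. These members were picked for their difference, which is a description.

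Only 3 members were covered further in both Hox-/- libraries. At chr10:41400317-41401870 in Ak9, an adenylate kinase gene, coverage was 1379 and 1344 bp in wt and 1554 and 1399 bp in Hox-/-. At chr19:11292282-11293997, nearest to Ms4a14, it was 1638 and 1698 bp in wt and 1716 and 1707 bp in Hox-/-. At chr16:50943004-50944503, 352 kb from Ccdc54, it was 1451 and 1417 bp in wt and 1464 and 1490 bp in Hox-/-. Genotypes were separated by 20, 9 and 13 bp, less than the gap between the replicates of at least 1 genotype.

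**Figure D4:**
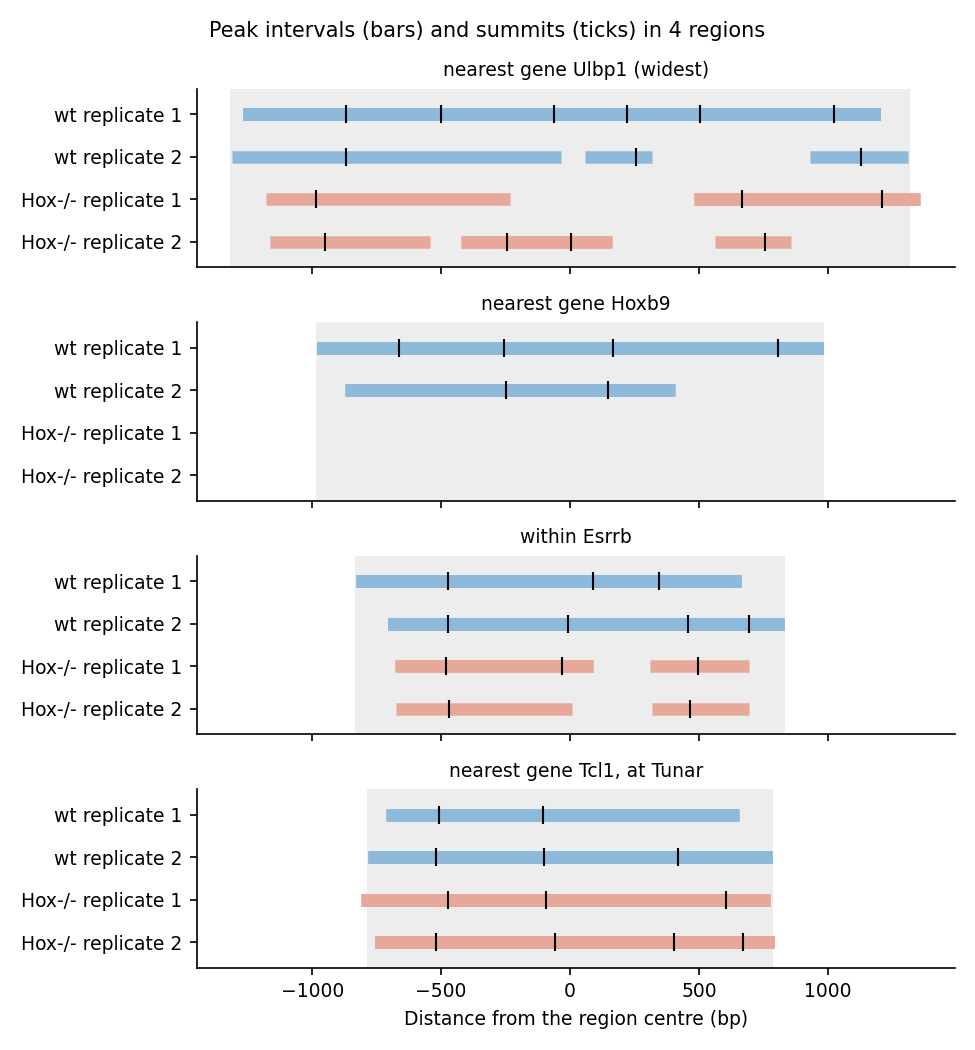
In 4 members, shown as distance from the region centre in bp, bars are the peak intervals of each library (wt blue, Hox-/- red), ticks are summits and the grey band is the member. The member near Hoxb9 has 0 bp covered in Hox-/-, the one in Esrrb is broken into 2 intervals in each Hox-/- library, the one near Ulbp1 is broken in every library but wt replicate 1, and the one at Tunar is covered over 1562 and 1540 bp.

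Members near genes of pluripotency, the ability to form all cell types of the body, were few. Of a list of 36 such genes, 7 were the nearest gene of 8 members (1.48% of members). Of these 8, 3 were lower in both Hox-/- libraries, where 50.1% of all members and 31.6% of all distal regions were, and nothing particular to them is read from this count. The list was nearest to 0.724% of all distal regions. The lists were chosen with earlier results of these data known, and no enrichment was tested.

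At Esrrb the member chr12:86421247-86422908 covers an inner start of the gene, 60.1 kb from its nearest end. Its intervals covered 1494 and 1537 bp in wt and 1154 and 1058 bp in Hox-/-, and both Hox-/- values lay under both wt values. In each Hox-/- library it was split into 2 intervals, where wt had 1. The member nearest to Tbx3, a T-box factor of naive cells, at chr5:119562960-119564575, was covered over 1517 and 1363 bp in wt and 1095 and 1124 bp in Hox-/-, again lower in both. The member chr13:44634627-44636187, 94.6 kb from Jarid2, a partner of Polycomb repressive complexes, was covered over 1360 and 1429 bp in wt and 1242 and 1315 bp in Hox-/-, lower by 45 bp between the nearest libraries.

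The other 5 did not separate the genotypes. At chr4:55650867-55652597, 118 kb from Klf4, a reprogramming factor, coverage was 1672 and 1725 bp in wt and 1730 and 1615 bp in Hox-/-. At chr3:133532389-133533940 in Tet2, an enzyme that oxidises methylated DNA, it was 1552 and 1268 bp in wt and 1516 and 1525 bp in Hox-/-. At chr14:48625091-48626655, 30.1 kb from Otx2, a factor of the transition to primed cells, it was 1527 and 1565 bp in wt and 1511 and 1545 bp in Hox-/-. At chr13:44408379-44410146, 321 kb from Jarid2, it was 1702 and 1767 bp in wt and 1690 and 1767 bp in Hox-/-. Member chr12:105336039-105337607, 113 kb from Tcl1, a coactivator of Akt kinase, holds the Tunar start whose window is printed above and was covered over 1370 and 1569 bp in wt and 1562 and 1540 bp in Hox-/-.

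Of 34 early lineage regulators, 3 were the nearest gene of 3 members (0.555%, against 0.343% of distal regions). The member nearest to Eomes, a mesendoderm factor, at chr9:118354447-118355961, was covered over 1441 and 862 bp in wt and 1342 and 1515 bp in Hox-/-. That nearest to Eya1, a cofactor of homeobox proteins, at chr1:14000709-14002258, was covered over 1501 and 1409 bp in wt and 1391 and 1410 bp in Hox-/-. Genotypes overlapped at both. The one nearest to Tfap2c, a trophoblast and germline factor, at chr2:172613054-172614691, was covered over 1627 and 1610 bp in wt and 1285 and 1326 bp in Hox-/-, without overlap. The lists of 36 signalling genes of stem cells and of 9 Hox cofactors had 0 members nearest to them, against 0.475% and 0.149% of distal regions.

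Members were scattered and rarely adjacent. They lay on all 19 autosomes, with 18 to 46 each, at a median of 27.1 kb from the nearest gene end (quartiles 11.8 and 69.8 kb), where narrower distal regions had a median of 29.0 kb. Their nearest genes were 516 different genes, of which 25 had 2 members and 0 had more. Inside a protein-coding gene lay 276 members, 51.0% (exact 95% binomial interval 46.7% to 55.3%), as did 52.2% of narrower distal regions. Covered shares were 93.6% and 92.6% in wt and 82.2% and 84.6% in Hox-/- inside genes, and 94.5% and 92.6% in wt and 83.8% and 85.1% in Hox-/- outside.

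Only 2 groups had members within 10 kb of each other, with 2 members each. The group at chr1:92316149-92325978, nearest to Hdac4, a histone deacetylase gene, and Ndufa10, a subunit gene of the respiratory chain, spanned 9.83 kb. Its members were covered over 1517 and 1426 bp, and 1806 and 1503 bp, in wt, and over 1078 and 991 bp, and 1494 and 1492 bp, in Hox-/-. The group at chr5:93018486-93027851 near Sowahb spanned 9.37 kb, with 1579 and 1537 bp, and 1335 and 1662 bp, in wt, and 1533 and 1429 bp, and 1293 and 1228 bp, in Hox-/-. All 4 were lower in both Hox-/- libraries, as were 50.1% of all members, a contrast that the choice on wt favours, and 2 of them by only 9 and 4 bp. With gaps of up to 25 and 50 kb there were 7 and 14 groups.

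A share of the members held annotated transcript starts, though distal by the rule. Starts of RefSeq transcripts lay in 77 members, 14.2% (exact 95% binomial interval 11.4% to 17.5%), with starts of protein-coding genes in 49 and of long non-coding RNAs in 38. In distal regions of 1000 to under 1500 bp the share was 7.64%, at 500 to under 1000 bp it was 2.57%, under 500 bp 0.708%, and in broad regions at gene ends 67.2%. A wider region can hold more starts, so the rate per length was taken too: 84.3 regions with a start per Mb of member sequence, 65.7 at 1000 to under 1500 bp, 37.8 at 500 to under 1000 bp and 21.9 under 500 bp. Starts that are not in the RefSeq table are not counted.

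The 77 members with a start were covered over 95.1% and 92.1% in wt and 86.0% and 85.9% in Hox-/-, and the 464 without one over 93.9% and 92.6% in wt and 82.5% and 84.7% in Hox-/-. The Hox-/- libraries were thus below the wt libraries in both subsets, which were both chosen on wt. At Dnmt1, chr9:20952023-20953553 was covered over 1454 and 1531 bp in wt and 1437 and 1443 bp in Hox-/-. At Foxp1, a forkhead factor, chr6:99027569-99029209 was covered over 1630 and 1616 bp in wt and 1367 and 1418 bp in Hox-/-. At Zdbf2, an imprinted gene, chr1:63272255-63274199 was covered over 1689 and 1593 bp in wt and 1186 and 1679 bp in Hox-/-. Genotypes overlapped at Zdbf2 and were apart by 11 bp at Dnmt1 and by 198 bp at Foxp1. These 3 genes were picked after their values were seen.

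Promoter windows wholly inside members numbered 103, from 70 members and 78 genes (46 protein-coding and 32 long non-coding RNA genes). Their median GC content was 64.3% with 20 CG dinucleotides, against 52.7% and 7 over all 32851 windows. Windows of the same gene overlap in part, so they are not independent. Of 6 motifs searched on both strands, GGGNGTGG, part of the sites of Klf factors, matched 18 of the 103 windows and 17.6% of all windows. CTTTGTT, a Sox-like site, matched 3, against 5.85% of all. TGACTCA, the AP-1 site, matched 1, against 5.20%. ATTTGCAT, the octamer, matched 0, against 1.74%, TCAAGGTCA, the Esrrb site, 0 against 0.423%, and the core of the CTCF site 0 against 0.329%. A match is only a run of letters, and the rest of each member was not searched, since no genome sequence was used here. The 103 windows were richer in GC than all windows, so the shares over all windows are not a matched background. With so few windows and such low shares, nothing is read from the counts of 0.

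**Figure D5:**
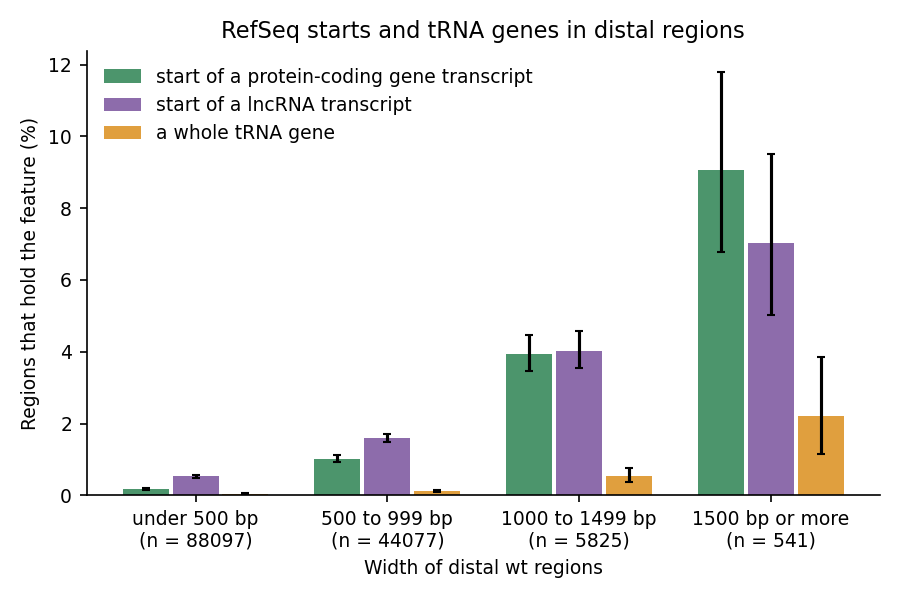
The x axis groups distal wt regions by width with their numbers, and the y axis is the percent that hold a start of a protein-coding or long non-coding transcript or a whole tRNA gene, with exact 95% binomial intervals. All 3 shares rise from the narrowest regions to the 541 members, where they are 9.06%, 7.02% and 2.22%.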

How the data were processed

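The 4 peak lists, 1 per library, were analysed. Per the submitters' processing notes, cutadapt 4.8, Bowtie2 2.5.0, Picard 2.18.2, bedtools 2.30.0, MACS2 2.2.9.1 and deepTools 3.5.4 were used on build mm10, with roles and parameters not given in the sources used here. The deposited lists give the authors' intervals and summits with a fold over background (a ratio), −log10 p and −log10 q values, and an integer score left unused. The lowest deposited −log10 q was 1.30 in each list. They served to rank, filter or describe peaks within a list.

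Intervals were merged when they shared 1 bp. Distances were taken to gene ends of the RefSeq table of GRCm38.p6, the mm10 assembly. Covered length is the part of a region inside a library's intervals, and summits are lines whose interval overlaps the region. Coordinates count from 1. Named regions are the 10 widest, the 5 with most summits in wt replicate 1, the 5 largest falls and up to 5 largest rises (3 exist) without overlap, the absent ones, the groups, and members next to listed genes. Because 12 members tied for the second most summits, only some of these are named. The microRNA and tRNA members, the best-ranked member and those at Dnmt1, Foxp1 and Zdbf2 lie outside this rule and were picked after their values were seen. The members and lists were chosen with earlier results of these data known. Genotypes are compared by values per library, with no p-value, since the rule used the wt lists. Scripts in Python 3.11.15 with pandas 2.3.3 and scipy 1.17.1 were checked on simulated lists. Alternatives are in the closing section.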

Additional observations from a re-analysis of the deposited data

How the results depend on the processing

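By construction, limits of 1000 and 2000 bp gave 6366 and 33 members, 6 and 0 without a Hox-/- peak, 2892 and 25 lower and 84 and 0 higher in both Hox-/- libraries, 296 and 0 groups, and 122 and 0 members next to listed genes, where the limit of 1500 bp gave 12. Over all distal wt regions of any width, 17.5% had no Hox-/- peak, 31.6% were lower and 1.49% higher in both Hox-/- libraries. Members without a Hox-/- peak numbered 2 with −log10 q of at least 5, 2 with the 150000 strongest lines, and 5 when under 50% covered in both. In the mirror rule, 0 regions lacked a wt peak, the covered share differed by 1.37 points and the median of summits by 0.5. From all 4 lists, 276 regions were lower and 57 higher in Hox-/-, and in the mirror rule 38 lower and 65 higher. No share over all regions merged in these ways was computed. A margin of 100 bp left 131 lower and 0 higher of the 541 members, a contrast that the choice on wt favours and for which no share over all regions was computed. Gaps of 25 and 50 kb gave 7 and 14 groups. The cause of the change with −log10 q and with strongest lines was not tested.

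Leaving out a wt replicate gave 270 to 337 members, and leaving out a Hox-/- replicate left the 541. Over all 4 such settings there was a covered share difference of −12.3 to −8.47 points, 0 to 1 members without a Hox-/- peak, 0 to 27 higher, a difference in median summits of −1 to 0, and, with 1 wt replicate left out, 1 group. Without a wt replicate the members are those of the other alone, 270 without wt replicate 1 and 337 without wt replicate 2. Lower in Hox-/- were 238 of these 270 and 300 of these 337, where the 1 wt library left is the one that chose them, and 333 and 385 of 541 without Hox-/- replicates 1 and 2. In the last 2 settings 27 and 17 members were higher. With 1 library left in a genotype, fewer libraries have to lie apart for a member to count. No share over all regions was computed for these settings, so nothing is read from these counts. Nothing in the labels pairs libraries by number, and the data gave no sign of it (correlation of replicate differences −0.0187 over 541 members). The replicate block gave −9.40 points and 0 summits. Of the alternative values, 55 kept direction or size, 33 moved and 1 reversed. The held-out choices on Hox-/- lists and with 150000 lines were added after seeing the data, as were those for listed genes.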

Other observations

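Genes for tRNAs, the adaptors of translation, lay whole in 12 members, 2.22% (exact 95% binomial interval 1.15% to 3.84%), against 0.549% of distal regions of 1000 to under 1500 bp and 0.0884% of all narrower distal regions. Per Mb of sequence there were 13.1 such members, 4.73 such regions of 1000 to under 1500 bp and 1.87 such narrower distal regions. Members at chr1:171101727-171103732, chr19:12010943-12012612 and chr3:19627816-19629428 held 4 tRNA genes each. Over the 12 members the covered share was 97.6% and 95.8% in wt and 90.3% and 91.7% in Hox-/-, and the median rank of their best line was within the first 8.66% and 7.64% of the wt lists. The member chr3:19627816-19629428 was covered over 1613 and 1600 bp in wt and 1593 and 1604 bp in Hox-/-, with 4 summits in every library. The member chr14:118088548-118090483 was covered over 1858 and 1816 bp in wt and 1162 and 1391 bp in Hox-/-. These genes were looked at after the values of the members were seen.

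The member with the best rank in wt replicate 1, chr17:39843016-39844901, ranked 9 and 6 in wt and 8 and 10 in Hox-/-, and was covered over 1883 and 1866 bp in wt and 1870 and 1878 bp in Hox-/-. No gene of the RefSeq table used here overlaps it. Whether its sequence is repeated in the genome was not examined, since no genome sequence was used here, so its rank is not read as openness of 1 site. Regions on the X and Y chromosomes were not analysed here.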
